A study of Bos taurus with 15 samples.

Results

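Transcripts of 10 bovine genes of the actin cytoskeleton were followed in blastocysts that had been cultured with or without oviductal extracellular vesicles (oEVs). They comprised the actins ACTB and ACTG1, the monomer-binding thymosins and profilin TMSB10, TMSB4X and PFN1, the filament-severing cofilin CFL1, and the cortex genes EZR, MYL6, TPM3 and ARPC2. The genes were chosen by symbol, and each symbol matched 1 row, identified by its NCBI Gene ID, among 10832 genes left by the authors' filter on low counts, out of 34773 genes counted. No member was near a detection limit, with at least 546 reads of each gene in each library.

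The embryos were produced in vitro and cultured without oEVs (Co), in the presence of fresh (FeEV) or of frozen oEVs (FoEV), and each treatment had 5 libraries. The labels give day 7 for the embryos, whereas the methods give a longer culture. Each library was made from 1 ng of total RNA of a pool of 8 to 14 embryos, so a value is an average over the embryos and cell types of a pool. The oEVs came from oviducts of cows in the postovulatory stage, collected at a slaughterhouse, and the only factor that differed between the groups by label was the oEV preparation. According to the paper, fresh and frozen oEVs were portions of material from the same oviducts, and a freeze and thaw step set them apart.

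Actin monomers are held in a soluble pool by thymosins, handed to growing filament ends by profilin and set free again when cofilin severs old filaments. The Arp2/3 complex, of which ARPC2 is a subunit, starts branched networks, tropomyosins such as TPM3 coat and stabilize filaments, and myosin II, whose essential light chain is MYL6, pulls on them. In the blastocyst the outer cells of the trophectoderm form a polarized epithelium with an actin-rich cortex, where ezrin (EZR) ties filaments to the apical membrane.

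The libraries held 2136713 to 4058887 counts on genes, and every FoEV library (3392613 counts or more) was deeper than every Co library (2977004 or fewer). Depth and the FoEV treatment can therefore not be told apart in the comparison with Co by these libraries. Ribosomal RNA took 21.8%, 20.7% and 21.3% of the counts on average in Co, FeEV and FoEV. Of 12 trophectoderm markers in the annotation 11 were in the filtered table, led by KRT8 and KRT18, and so were 7 of 8 hypoblast and 5 of 8 inner cell mass markers. Of the markers of the oviduct epithelium 8 of 10 were below the filter and the sum over all 10 was 14.2 to 41.6 CPM, counts scaled to the total of the library, in any library. PIGR was at 0 in all libraries, and OVGP1, the oviduct-specific glycoprotein, had at most 6 reads. Sums over the markers of cumulus and granulosa cells, blood and stroma, sperm and oocytes stayed below those of the blastocyst markers, with at most 48.5, 62.2, 13.8 and 34.9 CPM.

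Between culture with frozen oEVs and without oEVs, the largest fitted differences lay in genes that bind actin monomers or take filaments apart. TMSB10, PFN1 and CFL1 were higher by 0.28, 0.33 and 0.29 on the log2 scale in FoEV than in Co embryos, a factor of 1.22 to 1.25. ACTG1 and TPM3 differed by -0.04 and -0.06. CPM of the members were in addition scaled by TMM factors. In edgeR's quasi-likelihood test over all 10832 genes with Benjamini-Hochberg adjustment, 0 of the 10 genes passed an adjusted p of 0.05, as against 0.00923% of all genes, and 3 of 10 had an unadjusted p under 0.05, all 3 higher in FoEV, beside 15.1% of all genes in either direction and 8.18% in the higher direction. Among genes with a mean of at least 200 CPM, the range in which the members lie, the shares were 20% and 8.98%. Of the 10 genes 8 were higher in FoEV, as were 52.3% of all genes tested and 43.8% of those with at least 200 CPM, and the median log2 fold change was 0.18 against 0.01 over all genes. For none of the 10 did the 5 FoEV libraries separate fully from the 5 Co libraries, as 1.26% of all genes did in the higher direction. The likelihood ratio test with robust dispersion and the Wald test of DESeq2 also called 0 of the 10 at an adjusted p of 0.05, beside 311 and 144 of all 10832 genes. At an unadjusted p under 0.05 they called 4 and 3 members, beside 1962 and 1588 of all genes.

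TMSB10 (NCBI Gene ID 282385), a thymosin that sequesters actin monomers, had 319, 258, 261, 251 and 311 CPM in the Co libraries. In FeEV it had 272, 271, 302, 262 and 277 CPM. In FoEV it had 386, 313, 358, 328 and 316 CPM. All 5 FoEV libraries were above the Co median and 3 were above every Co library, while the lowest FoEV library was still above the highest FeEV library. The difference from Co was 0.28 ± 0.0892 (log2, SE), a factor of 1.22, with an adjusted p of 0.162 in edgeR. Against FeEV the difference was 0.30 ± 0.0891, with an adjusted p of 0.450 in edgeR. It was the only one of the 10 genes whose FoEV and FeEV libraries did not overlap, as 0.757% of all genes did in that direction.

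TMSB4X (282386), the related thymosin beta-4, had the widest spread between libraries in FoEV. It had 541, 443, 712, 512 and 618 CPM in Co and 601, 505, 525, 491 and 483 CPM in FeEV. In FoEV it had 940, 706, 578, 483 and 523 CPM, so that 1 library was above all Co libraries and 2 were among the lower ones. The coefficient of variation was 28.6% in FoEV, where the counting of reads alone gives 2.01%. TMSB4X was 0.19 ± 0.159 higher in FoEV than in Co on the log2 scale (edgeR, adjusted p = 0.589), and without FoEV replicate 1 the difference was 0.02. Against FeEV it was 0.31 ± 0.159 higher (edgeR, adjusted p = 0.596), and without FoEV replicate 1 0.14.

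Reads of TMSB4X may be shared with copies of the gene. A list in the supplementary files names 3 rows as thymosin beta-4 pseudogenes: LOC101906565, LOC101906455 and LOC101905979. The RefSeq annotation instead gives the first as a protein-coding gene and the last as a lncRNA, and the likeness of their sequences was not checked. Only part of that list was at hand, and it is sorted by the FoEV and Co difference, so the 3 rows are described without a test. The mean of LOC101906565 was 4.17, 5.08 and 8.39 CPM in Co, FeEV and FoEV, that of LOC101906455 9.63, 7.48 and 16.4 CPM, and that of LOC101905979 39.96, 39.2 and 53.2 CPM. Whether multi-mapped reads were split or dropped is not given in the sources used here, which leaves the level of TMSB4X and its copies uncertain.

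PFN1 (513895), profilin, which exchanges nucleotide on actin monomers and delivers them to filament ends, had 470, 313, 354, 325 and 420 CPM in Co. It had 341, 377, 434, 355 and 425 CPM in FeEV and 448, 391, 484, 567 and 467 CPM in FoEV. The 5 FoEV libraries were all above the Co median, and Co replicates 1 and 5 lay within the range of FoEV. Relative to Co, PFN1 in FoEV was higher by 0.33 ± 0.115 (edgeR, adjusted p = 0.193) and relative to FeEV by 0.29 ± 0.115 (edgeR, adjusted p = 0.516).

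CFL1 (534553), the non-muscle cofilin, had 599, 452, 482, 450 and 464 CPM in Co and 472, 436, 520, 476 and 535 CPM in FeEV. In FoEV it had 590, 542, 533, 761 and 559 CPM. Apart from Co replicate 1 all Co libraries were below all FoEV libraries, and FoEV replicate 4 stood above the others. CFL1 was 0.29 ± 0.104 higher in FoEV than in Co (edgeR, adjusted p = 0.206) and 0.29 ± 0.104 higher than in FeEV (edgeR, adjusted p = 0.496). Without FoEV replicate 4 the differences were 0.18 and 0.19 (edgeR, adjusted p = 0.441 for the first), and neither had an unadjusted p under 0.05.

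**Figure D1:**
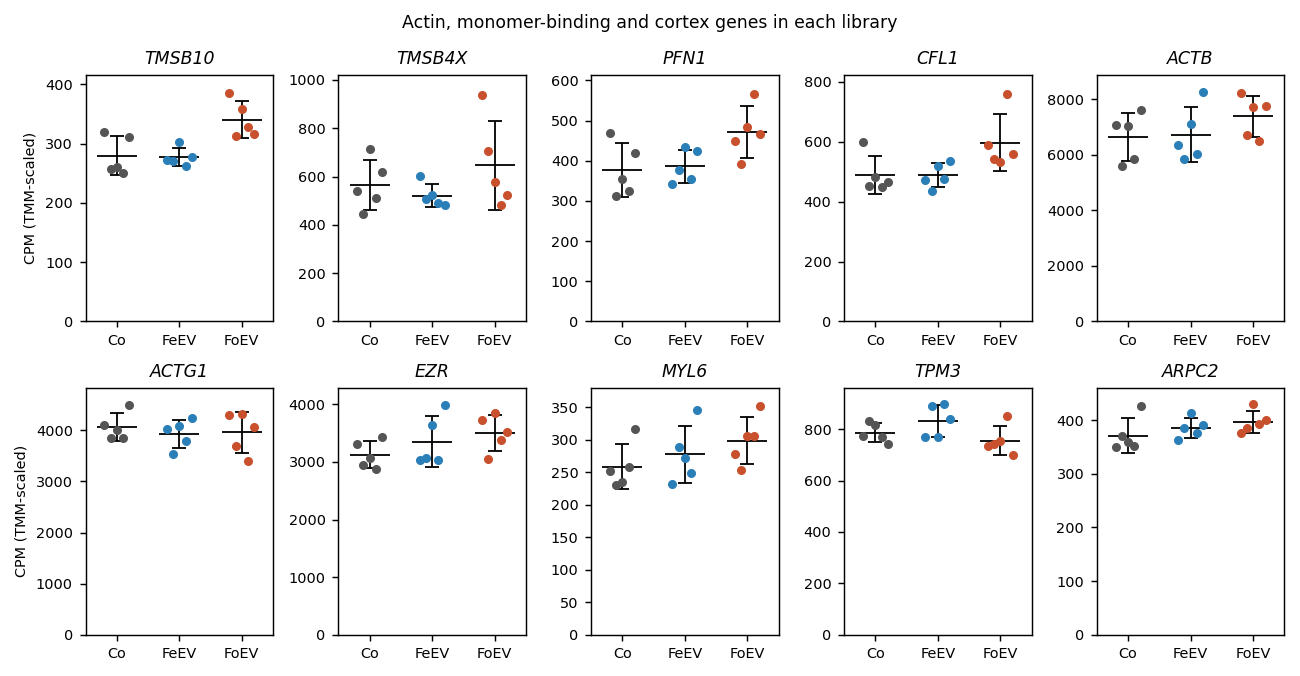
CPM after TMM scaling of the 10 genes (vertical axes, from 0) in each library of the 3 treatments (horizontal axes). Points are libraries, and bars give the mean and SD of 5. The FoEV libraries of TMSB10 lie at 313 CPM or more, above all FeEV libraries (302 CPM or less), whereas 3 of the 5 FoEV libraries of TPM3 lie below all Co libraries.

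The fitted differences of the actins themselves were smaller. ACTB (280979), cytoplasmic beta-actin, had 7072, 5605, 7057, 5870 and 7626 CPM in Co, 6367, 5847, 7114, 6026 and 8260 CPM in FeEV and 8219, 6728, 7725, 6494 and 7767 CPM in FoEV. The 3 treatments overlapped, with a difference of 0.15 ± 0.108 between FoEV and Co (edgeR, adjusted p = 0.516). ACTG1 (404122), cytoplasmic gamma-actin, had 4101, 3844, 4004, 3846 and 4502 CPM in Co, 4032, 3535, 4076, 3799 and 4239 CPM in FeEV and 4300, 3701, 4323, 3399 and 4062 CPM in FoEV. Its difference between FoEV and Co was -0.04 ± 0.0851, with a 95% interval of -0.21 to 0.14 (edgeR, adjusted p = 0.866), and it changed sign when Co replicate 5 or FoEV replicate 4 was left out (0.003 and 0.01).

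EZR (281574), the linker between membrane and cortex, ranged from 2873 to 3432 CPM in Co with a median of 3072, from 3029 to 3987 in FeEV with a median of 3066, and from 3055 to 3847 in FoEV with a median of 3522. The groups overlapped, and EZR was 0.16 ± 0.0937 higher in FoEV than in Co (edgeR, adjusted p = 0.409). Against Co, EZR in FeEV was 0.10 ± 0.0937 higher (edgeR, adjusted p = 1), and without FeEV replicate 5 the difference was 0.0308.

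MYL6 (281341), the essential light chain of myosin II, averaged 259 ± 34.4 CPM in Co, 278 ± 44.3 CPM in FeEV and 299 ± 36.9 CPM in FoEV (SD of 5 libraries). It was 0.21 ± 0.113 higher in FoEV than in Co (edgeR, adjusted p = 0.388), and both groups overlapped. With the description numbers as a block the difference was 0.0776. EZR and MYL6 had an unadjusted p under 0.05 when FoEV replicate 2 was left out (edgeR, adjusted p = 0.252 and 0.236), which raised the count of members from 3 to 5. The count over all genes rose from 1631 to 1956 of 10832.

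TPM3 (497019), a tropomyosin, was the member with the lowest mean in FoEV relative to both other treatments, with 787 ± 36.7 CPM (SD of 5 libraries) in Co, 833 ± 62.9 CPM in FeEV and 755 ± 57.0 CPM in FoEV. The log2 fold change of FoEV against Co was -0.06 ± 0.0781 (edgeR, adjusted p = 0.755), and against FeEV the log2 fold change was -0.14 ± 0.0781 (edgeR, adjusted p = 0.611). Of the 5 FoEV libraries 4 were below all FeEV libraries and 3 below all Co libraries. ARPC2 (540838), a core subunit of the Arp2/3 complex, had 371 ± 32.0, 386 ± 18.6 and 397 ± 20.5 CPM in Co, FeEV and FoEV (SD of 5 libraries). The difference between FoEV and Co was 0.10 ± 0.0777 (edgeR, adjusted p = 0.578), and Co replicate 5, at 427 CPM, stood above the other Co libraries at 349 to 370 CPM.

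Fresh oEVs were compared with no oEVs on the same libraries of Co, so the comparisons share their controls. The log2 fold changes of the 10 genes lay between -0.12 for TMSB4X and 0.10 for MYL6, with a median of 0.03. Of the 10 genes 6 were higher in FeEV, beside 51% of all genes and 48.4% of those with at least 200 CPM. None of the 10 passed edgeR's quasi-likelihood test at an adjusted p of 0.05, as was the case for 0% of all genes, and no member reached an unadjusted p under 0.05, beside 4.15% of the table. The robust likelihood ratio test and DESeq2 gave 0 members at either threshold as well, beside 664 and 411 of 10832 genes at an unadjusted p under 0.05. For TMSB10, PFN1 and CFL1 the differences were -0.01, 0.04 and -0.004, with 95% intervals of -0.20 to 0.17, -0.20 to 0.28 and -0.22 to 0.21.

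In the direct comparison of frozen with fresh oEVs 9 of 10 genes were higher in FoEV, as were 51.8% of all genes, and 43% of those with at least 200 CPM, with a median of 0.12 against 0.01 over all genes. With edgeR 0 of the 10 had an adjusted p under 0.05 (0% of all genes), whereas 3 had one under 0.05 before adjustment (8.52% of all genes in either direction and 4.83% in the higher direction, or 13.3% and 5.58% of those with at least 200 CPM), which were TMSB10, PFN1 and CFL1. The robust likelihood ratio test and DESeq2 also gave 0 at an adjusted p of 0.05, with 3 and 4 at an unadjusted p under 0.05. Over all 10832 genes the latter counts were 1193 and 902. The members these tests called were higher in FoEV, except 1 with DESeq2, which was lower. ACTG1 differed by 0.01 ± 0.0851 between FoEV and FeEV (edgeR, adjusted p = 0.988), with a 95% interval of -0.17 to 0.18, and its sign turned without a filter on low counts (-0.0007).

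**Figure D2:**
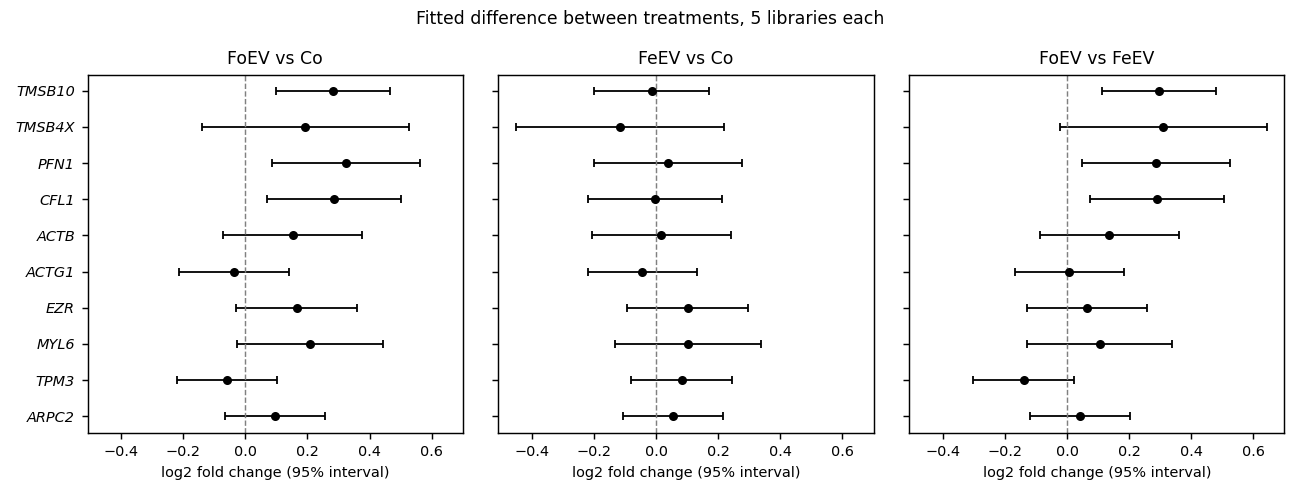
Log2 fold changes of the 10 genes (horizontal axes) in the 3 comparisons, from edgeR fits with 5 libraries per treatment; bars are 95% intervals and the dashed line marks no difference. The intervals of TMSB10, PFN1 and CFL1 lie above 0 in FoEV vs Co and in FoEV vs FeEV, and all 10 intervals include 0 in FeEV vs Co.

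To compare transcripts within a library, reads of the monomer-binding genes and of cofilin were set against the reads of ACTB and ACTG1 together, which does not depend on the scaling between libraries. These ratios were chosen after the values of the genes had been seen. Per 100 actin reads TMSB10 had 2.86, 2.73, 2.36, 2.58 and 2.56 reads in Co, 2.62, 2.89, 2.70, 2.67 and 2.21 in FeEV and 3.08, 3.00, 2.98, 3.31 and 2.67 in FoEV. Of the FoEV libraries 4 lay above all Co libraries and above all FeEV libraries. The means were 3.01 ± 0.230 in FoEV and 2.62 ± 0.186 in Co (SD of 5 libraries, two-sided exact permutation p = 0.0238, adjusted over the 15 ratio tests p = 0.119), and FoEV against FeEV had the same exact p of 0.0238.

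The ratios of PFN1, CFL1 and TMSB4X had differences between FoEV and Co within the spread of the libraries. PFN1 had 4.21 ± 0.869 reads per 100 actin reads in FoEV and 3.50 ± 0.404 in Co (SD of 5 libraries, exact permutation p = 0.0873), and CFL1 had 5.35 ± 1.34 and 4.59 ± 0.563 (exact permutation p = 0.286). FoEV replicate 4 had the highest ratio for both, at 5.73 and 7.69. With a library left out, the exact permutation p of PFN1 ran from 0.0159 (without Co replicate 1) to 0.175. It was under 0.05 in 1 of 10 runs, and the log2 differences were 0.13 to 0.32. For TMSB4X the means were 5.68 ± 1.37 in FoEV and 5.27 ± 0.691 in Co (SD of 5 libraries, exact permutation p = 0.690), and the sign turned without FoEV replicate 1.

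For the ratio of both cytoplasmic actins, the libraries of FoEV and Co did not overlap. ACTB had 1.72, 1.46, 1.76, 1.53 and 1.69 reads per ACTG1 read in the Co libraries. In FeEV the ratio was 1.58, 1.65, 1.75, 1.59 and 1.95, and in FoEV 1.91, 1.82, 1.79, 1.91 and 1.91. All 5 FoEV libraries were above all 5 Co libraries, while FeEV spanned most of both ranges. The means were 1.87 ± 0.0606 in FoEV and 1.63 ± 0.133 in Co (SD of 5 libraries), a log2 difference of 0.20, with a two-sided exact permutation p of 0.00794, the smallest that 5 against 5 libraries allow, and an adjusted p of 0.119 over the 15 ratio tests. Leaving out each library in turn gave log2 differences of 0.16 to 0.23. FoEV against FeEV had a log2 difference of 0.14 (exact permutation p = 0.0556). With a library left out, the exact permutation p ran from 0.0159 to 0.111 and was under 0.05 in 1 of 10 runs. That was the run without FeEV replicate 5, with a log2 difference of 0.19 (exact permutation p = 0.0159). That library had the highest ratio of all and, with 3808602 counts, a depth within the range of FoEV (3392613 to 4058887). Every FoEV library was deeper than every Co library, and whether the ratio follows depth was not tested. Both actins are closely related, and the likeness of their transcript sequences was not checked. Some reads may have been assigned to the other gene, and the ratio is that of the deposited counts.

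**Figure D3:**
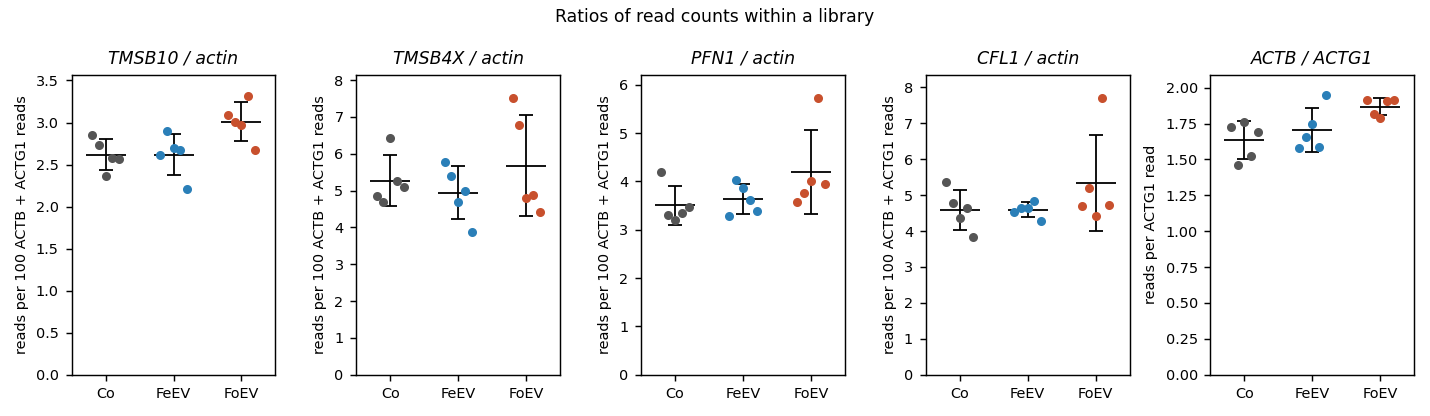
Reads of TMSB10, TMSB4X, PFN1 and CFL1 per 100 reads of ACTB and ACTG1, and ACTB reads per ACTG1 read (vertical axes, from 0) in each library of the 3 treatments; bars give the mean and SD of 5 libraries. In the last panel the FoEV libraries lie at 1.79 or more and the Co libraries at 1.76 or less.

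Several members varied together within the treatments. After the mean of each treatment had been removed from log2 CPM, 32 of the 45 pairs of genes had a positive Pearson correlation over the 15 libraries, with a median of 0.34. All 45 share the depth and the composition of their libraries. With permutation tests adjusted over the 45 pairs, 8 pairs had an adjusted p under 0.05, and 7 of them were positive. The deviations were shuffled over all 15 libraries, which does not allow for the treatment means that had been removed. These p-values and those of the correlations below are therefore too small, and calls near 0.05 are uncertain. The share among pairs of other genes was not computed. ACTB and EZR were closest, at r = 0.88 (100000 permutations, p = 3e-05, adjusted p = 0.00135) and Spearman's rho = 0.72 (permutation p = 0.0035, adjusted p = 0.0394), and r was 0.89 without the 2 libraries farthest from the median of ACTB. ACTB and ACTG1 had r = 0.85 (permutation p = 0.00013, adjusted p = 0.00292) and rho = 0.81 (permutation p = 0.00037, adjusted p = 0.0166), with r = 0.83 without the 2 farthest libraries.

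PFN1 and CFL1 were correlated at r = 0.76 (permutation p = 0.0007, adjusted p = 0.0105) and rho = 0.57 (permutation p = 0.0297, adjusted p = 0.0953), and r was 0.52 without the 2 libraries farthest from the median of PFN1. PFN1 and ACTB had r = 0.51 and rho = 0.49. CFL1 and ACTG1 had r = -0.14 (permutation p = 0.617, adjusted p = 0.669) and rho = 0.14 (permutation p = 0.630, adjusted p = 0.787), and r was 0.45 without the 2 farthest libraries. TPM3 ran against ACTG1, at r = -0.68 (permutation p = 0.00602, adjusted p = 0.0417) and rho = -0.58 (permutation p = 0.025, adjusted p = 0.0937), with r = -0.42 without the 2 farthest libraries. By Pearson's r, TMSB4X had no pair with an adjusted permutation p under 0.05, and TMSB10 had 1, with EZR.

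Markers of the trophectoderm moved with several members. The mean log2 CPM of the 11 markers in the filtered table ranged from 7.57 to 7.99 in Co, from 7.56 to 8.11 in FeEV and from 7.76 to 8.10 in FoEV. The sum of all 12 in the annotation, per library total without TMM factors, had a median of 9893 CPM in Co, 11693 CPM in FeEV and 11947 CPM in FoEV, with ranges of 7996 to 10827, 8301 to 12797 and 9438 to 14975 CPM. Of the 11 markers 10 were higher in FoEV than in Co and 1 lower, 4 had an unadjusted p under 0.05, all higher, beside 52.3% of all genes that were higher and 8.18% that were higher with such a p, and 0 an adjusted p under 0.05 with edgeR. KRT18, a keratin of simple epithelia, was 0.55 higher in FoEV (edgeR, adjusted p = 0.0818). With DESeq2, the robust test, no filter or the title numbers as a block, 1 of the 11 had an adjusted p under 0.05, KRT18. In FoEV against Co these settings called 144, 311, 173 and 57 of all genes. In these bulk samples a larger share of trophectoderm cells and more of these RNAs per cell cannot be told apart. Of 7 hypoblast markers 2 were higher and 5 lower in FoEV than in Co, and of 5 inner cell mass markers 3 and 2. In each list 1 gene was lower with an unadjusted p under 0.05 (edgeR), beside 6.88% of all genes, and 0 had an adjusted p under 0.05.

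Within the treatments the mean of the trophectoderm markers was correlated with 6 of the 10 members at an adjusted permutation p under 0.05 over 10 tests, all positive. The share of all genes with such a correlation was not computed, here or for the other scores and depth below. These counts therefore do not set the members apart from other genes. The closest was ACTB, at r = 0.89 (permutation p = 4e-05, adjusted p = 0.0004) and rho = 0.84 (permutation p = 0.00026, adjusted p = 0.0026), with r = 0.84 without the 2 libraries farthest from the median of the markers. EZR followed at r = 0.85 (permutation p = 0.00011, adjusted p = 0.00055) and rho = 0.74 (permutation p = 0.00236, adjusted p = 0.0102), with r = 0.79 without the 2 farthest libraries. For PFN1, ACTG1, TMSB10 and MYL6 r was 0.70, 0.69, 0.62 and 0.60. CFL1 (r = 0.51) did not pass (adjusted permutation p = 0.0682), and TMSB4X had r = 0.13 (adjusted permutation p = 0.659). ACTB and EZR also had the highest r with the depth of the library, and depth was not removed from these correlations. The part of the trophectoderm markers in the differences between treatments was not tested.

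The mean of the 5 inner cell mass markers was correlated with 2 of the 10 members at an adjusted permutation p under 0.05 over 10 tests. TPM3 was positively correlated with it, at r = 0.68 (permutation p = 0.00524, adjusted p = 0.0352) and rho = 0.62 (permutation p = 0.0152, adjusted p = 0.152), with r = 0.42 without the 2 libraries farthest from the median of the markers. ACTG1 ran against it, at r = -0.66 (permutation p = 0.00704, adjusted p = 0.0352) and rho = -0.50 (permutation p = 0.0615, adjusted p = 0.205), with r = -0.56 without the 2 farthest libraries. ACTB and TMSB4X had r = -0.58 and -0.50 (adjusted permutation p = 0.0707 and 0.143). The mean of the 7 hypoblast markers had 0 correlations at an adjusted permutation p under 0.05, and TMSB4X was nearest, at r = -0.59 (permutation p = 0.0215, adjusted p = 0.215), with r = -0.05 without the 2 farthest libraries.

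**Figure D4:**
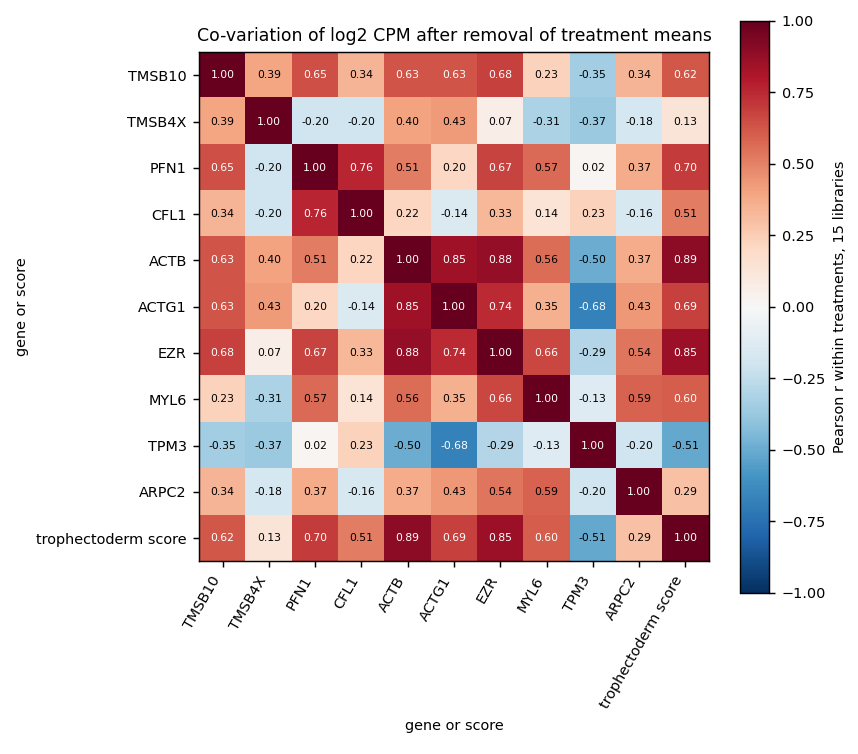
Pearson correlations of log2 CPM between the 10 genes and the mean of 11 trophectoderm markers over 15 libraries after removal of the treatment means; both axes list the genes and the marker mean, and the color runs from -1 to 1. ACTB, EZR and the marker mean form a block of 0.85 to 0.89, PFN1 and CFL1 a pair at 0.76, and TPM3 is negative with both actins.

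Within the treatments 9 of the 10 members had a positive correlation with depth, with a median r of 0.30. By Pearson's r, 1 had an adjusted permutation p under 0.05. ACTB was positively correlated with the log2 total counts of the library, at r = 0.67 (permutation p = 0.00266, adjusted over 10 tests p = 0.0266) and rho = 0.77 (permutation p = 0.0012, adjusted p = 0.012), and r was 0.66 without the 2 libraries farthest from the median depth. EZR followed at r = 0.60 (adjusted permutation p = 0.0642), and ACTG1 had r = 0.48 (adjusted permutation p = 0.226). TMSB4X had r = 0.30 and rho = 0.59 (adjusted permutation p = 0.413 and 0.114). For TMSB10, PFN1 and CFL1 r with depth was 0.30, 0.21 and 0.14 (adjusted permutation p = 0.413, 0.585 and 0.643). The share of ribosomal RNA had no Pearson correlation with a member at an adjusted permutation p under 0.05 over 10 tests, and MYL6 was nearest (r = 0.69, adjusted permutation p = 0.0508, and rho = 0.73, adjusted permutation p = 0.0274).

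The genes whose log2 CPM followed the mean of the 10 members most closely over all 15 libraries were KRT18 (Pearson r = 0.94), S100A14 (0.93), S100A16 (0.93), CLDN6 (0.92) and GAPDH (0.92). KRT18 and the tight junction gene CLDN6 are epithelial genes, S100A14 and S100A16 encode calcium-binding proteins, and GAPDH encodes a glycolytic enzyme. Their likeness is a description over libraries that share depth and treatment, ranked over all genes of the filtered table. KRT18 had a mean of 2684 CPM in Co, 3216 in FeEV and 3929 in FoEV.

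The wider actin machinery was described with 11 lists that hold 145 annotated genes, of which 131 were in the filtered table and 121 of these were not members. In FoEV against Co 68 of the 121 lay above 0 and 53 below, and their median difference was 0.04 on the log2 scale. With edgeR 0 of the 121 had an adjusted p under 0.05, and 8 (beside 8.18% of all genes) had an unadjusted p under 0.05 in the higher and 12 (beside 6.88%) in the lower direction. DESeq2 gave 0 at an adjusted p of 0.05, with 7 and 13 at an unadjusted p under 0.05, and the robust likelihood ratio test gave 2, CAPG and CCN1, with 13 and 15. Of all 10832 genes DESeq2 called 144 at the adjusted and 1588 at the unadjusted threshold, and the robust test 311 and 1962. Without a filter on low counts edgeR gave 1, FHL2, a LIM domain protein, which was 0.49 higher in FoEV than in Co (edgeR, adjusted p = 0.0471). That setting called 173 of 25470 genes. In the main fit FHL2 was 0.50 ± 0.219 higher (edgeR, adjusted p = 0.289). With a library left out it was 0.33 to 0.62 higher, with an unadjusted p under 0.05 in 6 of 10 runs. In FeEV against Co 2 and 5 had an unadjusted p under 0.05, beside 1.83% and 2.32% of all genes, and in FoEV against FeEV 6 and 4, beside 4.83% and 3.69%, with 0 at an adjusted p of 0.05 in edgeR in both.

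Relatives of the monomer-binding members lay on either side of no difference. The filtered table held 4 other monomer-binding genes, of which 3 were higher and 1 lower in FoEV than in Co, with 0 at an adjusted p under 0.05. Cyclase-associated protein CAP1, at 578 ± 18.0 CPM in Co and 607 ± 45.3 in FoEV (SD of 5 libraries), differed by 0.07 (edgeR, adjusted p = 0.726). TWF1, twinfilin, which also binds monomers, was lower by a log2 fold change of -0.25 (edgeR, adjusted p = 0.230).

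In the list of filament turnover, CFL1 aside, 6 of 14 genes were higher and 8 lower. Of these 1 and 3 had an unadjusted p under 0.05, beside 8.18% and 6.88% of all genes. CFL2, the muscle cofilin and nearest relative of CFL1, had a log2 fold change of -0.28 ± 0.101 (edgeR, adjusted p = 0.206), a size like that of CFL1 in the other direction. DSTN, destrin, a close relative of cofilin, was 0.17 ± 0.111 higher (edgeR, adjusted p = 0.469). WDR1, a cofactor of cofilin, was 0.12 ± 0.0858 higher (edgeR, adjusted p = 0.501).

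Among the other genes of the Arp2/3 complex and its activators 11 of 20 were higher and 9 lower. At an unadjusted p under 0.05 there were 0 and 3, beside 8.18% and 6.88% of all genes. NCKAP1, a subunit of the WAVE complex that activates Arp2/3, had 205, 230, 242, 246 and 240 CPM in Co and 211, 205, 194, 168 and 198 CPM in FoEV. The groups overlapped through Co replicate 1, and the log2 fold change was -0.25 ± 0.0868 (edgeR, adjusted p = 0.181). ACTR3, an actin-related subunit, and RAC1, a small GTPase upstream of WAVE, differed by -0.06 and 0.04.

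Of 16 formins and other elongation factors 11 were higher and 5 lower. An unadjusted p under 0.05 was found for 3 and 1 of these, beside 8.18% and 6.88% of all genes. VASP, which speeds the growth of filaments with profilin-bound actin, had 122, 86.7, 101, 89.9 and 108 CPM in Co and 142, 122, 116, 146 and 114 CPM in FoEV. Of the FoEV libraries 3 were above all Co libraries, and VASP was 0.34 ± 0.107 higher (edgeR, adjusted p = 0.162). ENAH and RHOA differed by 0.05 ± 0.249 and -0.0007 ± 0.0764.

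Among 11 genes of capping and severing 5 were higher and 6 lower. Of these 2 and 1 had an unadjusted p under 0.05, beside 8.18% and 6.88% of all genes. CAPG, which caps fast-growing filament ends, had 183, 158, 156, 140 and 183 CPM in Co and 215, 165, 211, 228 and 210 CPM in FoEV. Of the FoEV libraries 4 were above all Co libraries, and CAPG was 0.33 ± 0.0985 higher (edgeR, adjusted p = 0.145). With the robust dispersion and the likelihood ratio test its adjusted p was 0.0359. CAPZA1 and TMOD3, which cap opposite filament ends, differed by -0.06 and 0.04.

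The lists closest to the cortex members held no gene with an adjusted p under 0.05. Of the other membrane linkers 7 of 13 were higher and 6 lower in FoEV than in Co, and the linkers MSN and ANXA2 differed by 0.24 ± 0.132 (edgeR, adjusted p = 0.389) and 0.15 ± 0.0963 (edgeR, adjusted p = 0.478). Of the other myosin II genes 6 of 11 were higher and 5 lower. The heavy chains MYH9 and MYH10 differed by 0.15 ± 0.0927 (edgeR, adjusted p = 0.455) and 0.03 ± 0.0988 (edgeR, adjusted p = 0.905). The tropomyosins TPM1 and TPM4, relatives of TPM3, differed by 0.10 ± 0.129 and -0.01 ± 0.0692.

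Of 15 genes that bundle or crosslink filaments 9 were higher and 6 lower in FoEV than in Co, where 52.3% of all genes were higher. In FoEV against FeEV 13 were higher and 2 lower, where 51.8% of all genes were higher. In this comparison 1 of the 15 was higher with an unadjusted p under 0.05, beside 4.83% of all genes. That gene was FSCN1, fascin, which had 64.7, 62.8, 67.3, 80.6 and 63.7 CPM in FeEV and 104, 77.7, 71.9, 115 and 89.7 CPM in FoEV. The log2 fold change was 0.44 ± 0.145 (edgeR, adjusted p = 0.486), and FeEV replicate 4 lay among the FoEV libraries. The crosslinker ACTN4 differed by 0.13 ± 0.0937 between FoEV and Co.

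The cofactors MRTFA and MRTFB of the transcription factor SRF bind free actin monomers, and these factors and their targets outside the actin genes formed the last list. Of its 11 genes 5 were higher and 6 lower in FoEV than in Co, and 4 higher and 7 lower in FeEV than in Co. CCN1, a secreted matrix protein, had 82.0, 50.9, 83.2, 46.6 and 53.8 CPM in Co and 54.5, 33.8, 36.3, 29.6 and 34.4 CPM in FeEV. All FeEV libraries but replicate 1 were below all Co libraries, and the log2 fold change was -0.74 ± 0.237 (edgeR, adjusted p = 1). Without a filter on low counts its adjusted p was 0.0257 in edgeR, a setting that called 13 of 25470 genes in FeEV against Co. CCN1 was lower in FoEV than in Co as well, by a log2 fold change of -0.55 ± 0.231 (edgeR, adjusted p = 0.277). FoEV and FeEV differed by 0.20 ± 0.237 (edgeR, adjusted p = 0.828). The adhesion genes VCL and ZYX differed by -0.17 ± 0.0988 and 0.26 ± 0.144 between FoEV and Co.

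**Figure D5:**
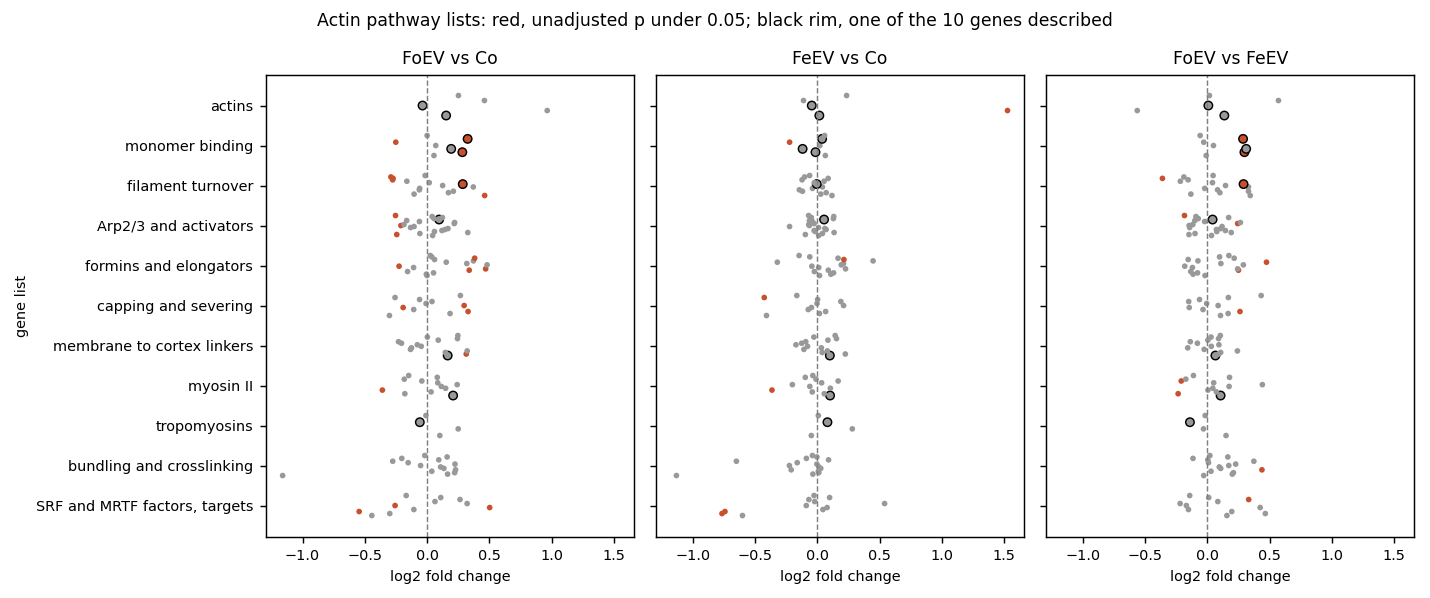
Log2 fold changes (horizontal axes) of the 131 genes of 11 lists of the actin machinery (vertical axis) in the 3 comparisons, each point a gene from the edgeR fit. Genes with an unadjusted p under 0.05 are red and the 10 members have a black rim; TMSB10, PFN1 and CFL1 are red in both comparisons of FoEV, beside relatives on either side of 0.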

How the data were processed

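Total RNA was sequenced from pools of bovine embryos (Ovation SOLO kit, single-end reads of 125 bases), 15 libraries in all, 5 per treatment, and sample titles gave the grouping. The authors mapped the reads to ARS-UCD1.2 and deposited whole-number counts per gene without normalization, in a filtered and an unfiltered table. The methods name QuasR for counting, whereas the submitters' processing notes list Trim Galore 0.4.3.1, HISAT2 2.1.0 and featureCounts 1.6.3. The strand setting and the handling of multi-mapped reads are not given in the sources used here, so genes that overlap others or have copies are uncertain.

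From the filtered counts, CPM were computed with TMM factors, and the 3 comparisons were tested in 1 fit with treatment as the only factor (edgeR 4.0.16, estimateDisp, robust quasi-likelihood F test, R 4.3.3), adjusted over 10832 genes. Errors of log2 fold changes are SE from this fit. The test was checked on simulated data. For scores, log2 CPM (prior count 2) were averaged over marker genes. Correlations used deviations from treatment means and 100000 permutations over all libraries, not within treatments. Ratios used the exact permutation test over 252 assignments. Both ran in Python 3.11.15 with scipy 1.17.1. Alternatives were DESeq2 1.42.0 (size factors and Wald test), the likelihood ratio test with robust dispersion, no filter, only the 10 libraries compared, a replicate block by title or by description number, TMSB4X with its copies, and leaving out each library.

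The members, the lists and the tests were chosen with earlier results of these data known. Named are all members, pathway genes with p under 0.01, the 2 genes of highest CPM in each list, the copies and the 5 genes most like the members. CFL2 and FHL2 were added after their values had been seen. A gene under this rule is not reported here. Depth ran from 2136713 to 4058887 counts. Whether the pools came from separate culture runs is not given, so p-values measure the spread between libraries. The source that fresh and frozen oEVs shared was not part of the main fit. Pools the study did not sequence, sequences and transcript lengths were not used here, so levels were not ranked between genes.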

Additional observations from a re-analysis of the deposited data

Results flagged for a closer look

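A library was set apart from the other 4 of its treatment by Dixon's test at the 95% level in 11 of 69 groups of 5, where chance gives about 1 in 20. For CFL1 these were Co replicate 1 at 599 CPM and FoEV replicate 4 at 761 CPM, and for ARPC2 Co replicate 5 at 427 CPM. Relative to actin, PFN1 stood out in Co replicate 1 (4.21 reads per 100 actin reads) and in FoEV replicate 4 (5.73), and CFL1 in FoEV replicate 4 (7.69). Of the pathway genes, VASP stood apart in FeEV replicate 2 (89.9 CPM, the lowest of its group), CAPG in FeEV replicate 5 (195 CPM), FSCN1 in FeEV replicate 4 (80.6 CPM), and CCN1 in FeEV replicate 1 (54.5 CPM) and FoEV replicate 1 (70.4 CPM). The values of CFL1 and PFN1 share libraries and the actin ratios reuse the same counts, so these are not independent.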

How the results depend on the processing

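No alternative brought a member to an adjusted p under 0.05, and the lowest was 0.0623, for TMSB10 in FoEV against Co. Of 1006 log2 fold changes of members and named genes under alternatives 961 kept their direction and their side of the threshold, 42 changed sign and 3 (CAPG, CCN1 and FHL2, given above) passed the threshold. The count of members with an unadjusted p under 0.05 in FoEV against Co, 3, became 6 with the title numbers as a replicate block and ran from 2 (without FoEV replicate 4) to 5 (without FoEV replicate 2) with a library left out. Over all 10832 genes the count was 1631 in the main fit, 1911 with the title block, 1284 without FoEV replicate 4 and 1956 without FoEV replicate 2. The count of members stayed 0 in FeEV against Co and ran from 2 to 4 in FoEV against FeEV. Libraries of the same title number had a mean correlation of 0.12 (-0.29 to 0.44) of their deviations, against -0.03 for other numbers. Of 30 matches 11 were closest to their own number. Whether the numbers mark pairs is not given in the sources used here, and the main fit did not take them as pairs. With the title block the exact sign-flip p of ACTB per ACTG1 read and of TMSB10 per actin read was 0.0625, the smallest that 5 pairs allow.

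Signs turned only for small differences among the values recomputed. In FeEV against Co these were TMSB10 (0.0514 with the description block), CFL1 (0.0253 with the robust test and 0.1363 with the description block) and ACTB (-0.0089 with the robust test and -0.0088 with the description block), in FoEV against FeEV ACTG1 (-0.0007 without a filter), and in FoEV against Co MYH10 (-0.0022 with the description block). With libraries left out, ranges across 0 in FeEV against Co were -0.0512 to 0.0369 for TMSB10, -0.021 to 0.1318 for PFN1, -0.0397 to 0.0789 for CFL1 and -0.0684 to 0.0708 for ACTB. In FoEV against Co they were -0.0782 to 0.0131 for ACTG1, -0.0946 to 0.193 for ENAH, -0.0185 to 0.0329 for RHOA, -0.0225 to 0.1114 for TMOD3, -0.0225 to 0.0817 for MYH10, -0.0087 to 0.1936 for TPM1 and -0.0363 to 0.0026 for TPM4, and in FoEV against FeEV -0.0305 to 0.0575 for ACTG1. Per actin read they were -0.0391 to 0.0573 for TMSB10 and -0.0557 to 0.0657 for CFL1 in FeEV against Co, and -0.0245 to 0.1666 for TMSB4X in FoEV against Co. The ratios and their alternatives were chosen after seeing the data, and the causes were not tested.

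Over all genes, calls at an adjusted p of 0.05 in FoEV against Co numbered 1 with the quasi-likelihood test, 57 with the title block, 12 with the description block, 144 with DESeq2, 173 without a filter and 311 with the robust test, and ran from 0 to 58 with a library left out (0 without Co replicate 3 or 4 or FoEV replicate 1, 4 or 5, and 58 without FoEV replicate 2). The addition of copies was run for TMSB4X alone (0.2261 in FoEV against Co), and the copies came from a list sorted by that difference, so the value is no independent check. In FeEV against Co, MYL6 differed by 0.1027, and by 0.0093 without FeEV replicate 5, and TMSB4X by -0.1178, and by -0.0205 without Co replicate 3. ACTB in FoEV against Co was 0.097 without Co replicate 2, and PFN1 in FoEV against FeEV 0.1872 with the description block.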
